A study of Mus musculus with 10 samples.

Results

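Collagen genes encode the chains of the triple-helical proteins that hold tissues together, and 40 of them were followed here in mouse gastric tumours. The members were all genes of the deposited expression table whose symbol has the form of a collagen chain name, 44 of 56748 genes, without the cartilage chains Col2a1, Col9a1, Col9a2 and Col9a3. RNA was sequenced from 5 inflamed and 5 desert gastric tumours of mice, with 1 library per tumour. Inflamed tumours, from stomach, arose in mice of genotype Tff1-CreERT2;Apcfl/fl;Trp53fl/fl: a Cre recombinase that needs tamoxifen, driven by the pit cell gene Tff1, acts on floxed copies of Apc and Trp53. Desert tumours, also from stomach, were orthotopic allografts, and their genotype is given as wild type. Whether that names the host or the grafted cells, what the grafted cells carry, whether they are 1 clone, and the age and strain of the mice are not given in the sources used here. Genotype, tumour type and tumour model coincided and cannot be told apart.

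Each collagen molecule is a trimer of chains that wind into a triple helix, and the classes differ in what the trimers build. Fibrillar collagens form the banded fibres of connective tissue, with type V chains controlling fibre thickness. Network collagens form sheets, such as the type IV collagens of basement membranes under epithelium and around vessels. Type VI collagens form beaded filaments, FACIT collagens sit on the surface of fibres, and transmembrane collagens are anchored in the cell membrane. In most tissues fibroblasts, smooth muscle cells and pericytes make the fibrillar chains, while epithelial and endothelial cells also make type IV collagen.

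The inflamed libraries held 15474313 to 15975770 reads in genes and the desert libraries 14148147 to 16951640. Correlations of log2(FPKM + 1) over the tested genes were 0.926 to 0.975 within inflamed tumours, 0.952 to 0.976 within desert tumours and 0.701 to 0.765 between the tumour types. Levels are given as FPKM, the authors' unit, which divides reads by gene length and by library size. Comparisons of levels between genes, and class shares, therefore depend on the gene lengths in the deposited data. Differences are inflamed minus desert on the log2(FPKM + 1) scale, which understates the change of low genes. They were tested with limma over all genes with a mean of at least 0.5 FPKM, and a gene was called at a Benjamini-Hochberg adjusted p under 0.05. In bulk tissue, fewer cells of a type and less RNA per cell cannot be told apart.

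Most collagen chains with a measurable level were higher in inflamed tumours, among them type III, IV, V, VI, XII and XIV chains, while Col11a2, Col20a1, Col8a1 and Col16a1 were lower. Of the 40 members, 27 reached the level for testing; 16 of these rose, 4 fell and 7 were not called. That is 59.3% higher and 14.8% lower, beside 31% higher and 31.2% lower among all 16750 tested genes, so that 74.1% of the tested members and 62.2% of all tested genes were called. Their median difference was 0.85, and that of all tested genes was -0.007. Groups did not overlap in 9 of the 27 tested members with inflamed tumours above (33.3%) and in 3 with inflamed tumours below (11.1%), beside 24.4% of all tested genes in each direction. Over all 40 members the counts were 11 and 4, with Col24a1 and Col4a6 above and Col26a1 below. For 4 of the tested members (Col4a5, Col6a4, Col6a5 and Col13a1) the mean was under 0.5 FPKM in desert tumours, so they entered the test through the inflamed tumours alone, and the counts are a description of the members that could be tested. Rescaling to TPM (values that sum to the same total in every library) moved the median difference of all genes to -0.28 and left 10 members higher; the all-gene split was then 3769 higher and 6989 lower, beside 5197 and 5221 with FPKM.

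**Figure D1:**
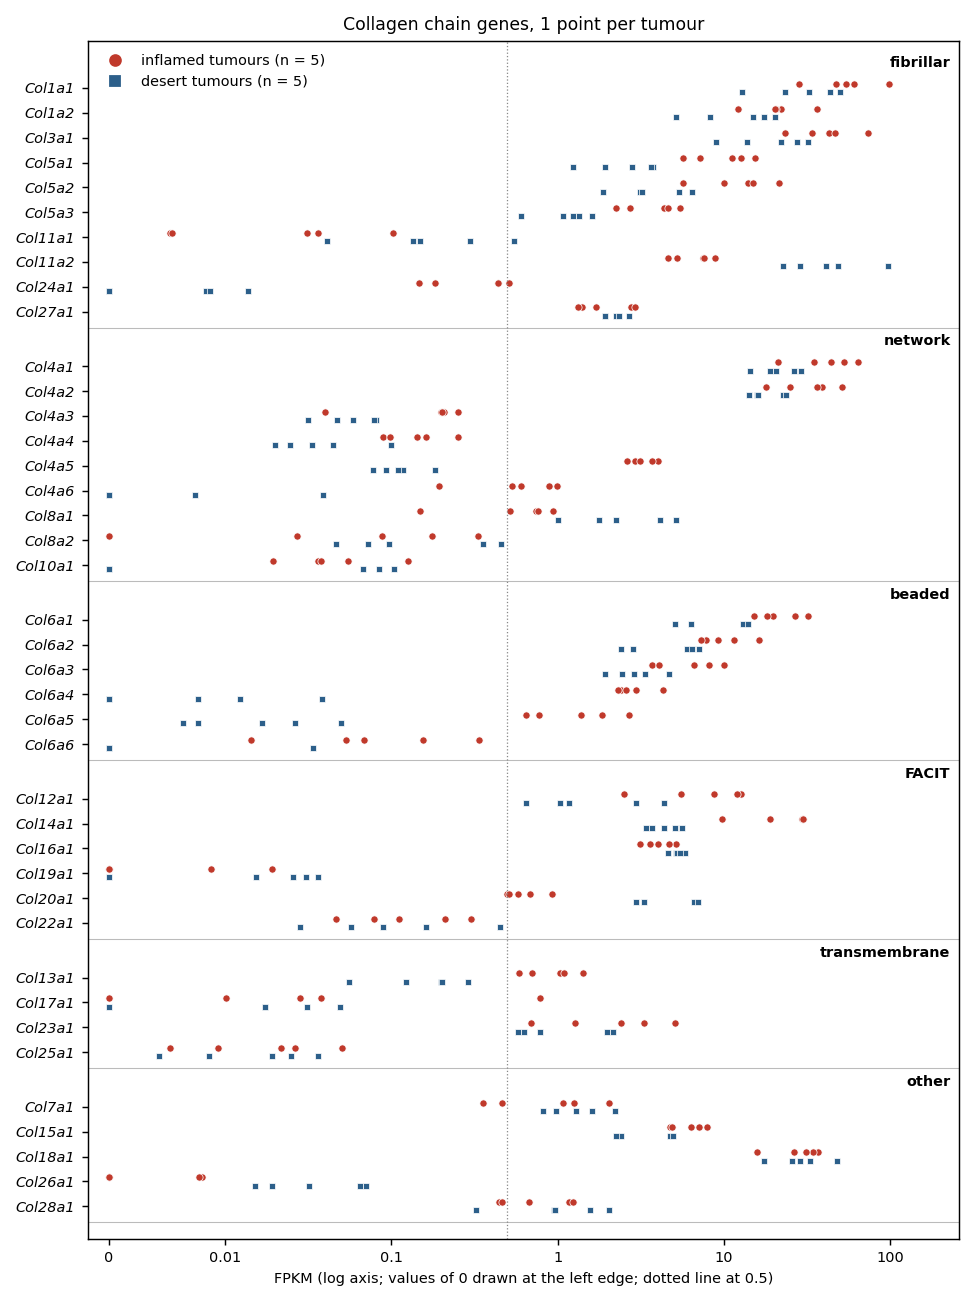
FPKM of each of the 40 collagen chain genes (rows, by structural class) on a log axis, with 1 circle per inflamed tumour and 1 square per desert tumour, 5 of each; values of 0 are drawn at the left edge and the dotted line marks 0.5 FPKM. Col1a1 has the highest mean in inflamed tumours and Col11a2 in desert tumours, Col4a5, Col6a4 and Col6a5 are near 0 in desert tumours only, and Col11a2 reaches 22.6 to 96.9 FPKM in desert tumours against 4.58 to 8.88 FPKM in inflamed tumours.

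The fibrillar class held both the most abundant chains and the largest fall. Of its 10 genes 8 were tested, 4 rose, 1 fell and 3 were not called. Col1a1 (ENSMUSG00000001506, chromosome 11), the major chain of type I collagen, was at 97.9, 60.3, 54.2, 28.3 and 47.2 FPKM in inflamed tumours, numbered 1 to 5, against 23.4, 43.1, 32.4, 12.8 and 49.6 FPKM in desert tumours 1 to 5. The groups overlapped, since inflamed tumours 4 and 5 lay below desert tumour 5. Its difference of 0.85 (SE 0.38) was not called (limma adjusted p = 0.0751, 95% interval 0.00 to 1.69), but passed with inflamed tumour 4 left out (1.07, adjusted p = 0.0284) or without desert tumour 5 (1.03, adjusted p = 0.0422) (alternatives ranged over 0.0284 to 0.251). Col1a2, its partner chain in the same trimer, averaged 22.2 ± 8.68 FPKM in inflamed against 13.2 ± 6.37 FPKM in desert tumours (SD, n = 5 each). It was not called either (0.77, SE 0.36, limma adjusted p = 0.0852), and became called without the same libraries, inflamed tumour 4 (adjusted p = 0.0401) or desert tumour 5 (adjusted p = 0.045) (alternatives ranged over 0.0401 to 0.283).

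Col3a1 (ENSMUSG00000026043, chromosome 1), the single chain of type III collagen, was at 73.3, 42.7, 46.3, 23.3 and 34.0 FPKM in inflamed tumours, against 13.7, 27.4, 22, 8.99 and 32 FPKM in desert tumours. It rose by a difference of 1.07 (SE 0.36, limma adjusted p = 0.0231), although inflamed tumour 4 lay within the desert range. The call was lost without inflamed tumour 1 (0.87, adjusted p = 0.0544), without desert tumour 1 (0.96, adjusted p = 0.0542) and with TPM (0.81, adjusted p = 0.097) (alternatives ranged over 0.0104 to 0.097). All 3 type V chains, which co-assemble with type I collagen, rose. Col5a1 (ENSMUSG00000026837, chromosome 2) was at 15.4, 11.1, 12.6, 5.67 and 7.15 FPKM in inflamed tumours, against 1.93, 3.75, 2.82, 1.23 and 3.66 FPKM in desert tumours. These ranges did not meet, the means differed 3.88-fold, and the difference was 1.61 (SE 0.28, limma adjusted p = 0.000475). Col5a2 averaged 13.2 ± 5.93 FPKM in inflamed against 4 ± 1.84 FPKM in desert tumours (difference 1.48, SE 0.34, limma adjusted p = 0.00271). Col5a3 averaged 3.88 ± 1.34 FPKM in inflamed against 1.17 ± 0.373 FPKM in desert tumours, without overlap (difference 1.14, SE 0.20, limma adjusted p = 0.000574). Type V calls held under every alternative that was run.

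Col11a2 (ENSMUSG00000024330, chromosome 17) encodes a chain of type XI collagen, which is best known from cartilage fibres together with Col2a1 and Col11a1. It was at 4.58, 7.45, 7.60, 8.88 and 5.21 FPKM in inflamed tumours, against 96.9, 48.2, 28.6, 41.2 and 22.6 FPKM in desert tumours. Every inflamed tumour lay below every desert tumour, the mean was 7.04-fold higher in desert tumours, and the difference was -2.50 (SE 0.34, limma adjusted p = 7.72e-05). This gene alone made up 1.79% to 9.96% of the summed fibrillar FPKM in inflamed tumours and 16.4% to 64.2% in desert tumours. Col11a1, the chain with which it pairs in cartilage, was not tested for its low level: it was at 0.00466 to 0.103 FPKM in inflamed against 0.0409 to 0.546 FPKM in desert tumours, 39 and 268 reads in all. The ranges overlapped, and Col11a1 was not called without the filter (adjusted p = 0.0824), while limma voom on the recovered reads called it lower in inflamed tumours (-2.98, adjusted p = 0.018).

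Most tested markers of cartilage cells moved with Col11a2, and their part in its difference was not tested. Of 8 chondrocyte markers 4 were tested, 3 fell (75%, beside 31.2% of all tested genes) and 1 rose (25%, beside 31%). The summed level of the 8 was 86.3 to 114 FPKM in inflamed against 481 to 623 FPKM in desert tumours. Snorc, a chondrocyte proteoglycan, averaged 0.0648 ± 0.0664 FPKM in inflamed against 160 ± 42.8 FPKM in desert tumours (SD, n = 5 each; limma adjusted p = 1.24e-10). Snorc passed the filter through the desert tumours alone, so it could only be tested because it was high there. Comp, a cartilage matrix glycoprotein, averaged 0.903 ± 0.169 FPKM in inflamed against 217 ± 53.1 FPKM in desert tumours (limma adjusted p = 3.21e-10). The remaining fall was that of Sox9, at 54.8 ± 7.15 FPKM in inflamed against 152 ± 12.7 FPKM in desert tumours (limma adjusted p = 5.79e-07). Chad, a cartilage leucine-rich repeat protein, went the other way, at 39.4 ± 5.27 FPKM in inflamed against 8.21 ± 2.04 FPKM in desert tumours (2.16, limma adjusted p = 1.35e-06). Col2a1, the main cartilage fibre chain and left out by the rule, was at 0.00619 to 0.0184 FPKM in inflamed against 20.5 to 163 FPKM in desert tumours. Some other defining genes of cartilage, Acan, Matn1 and Hapln1, were near 0 in both types. Acan, the aggrecan gene, was at 0.00795 to 0.299 FPKM in inflamed against 0.0158 to 0.0423 FPKM in desert tumours, and Matn1 and Hapln1 did not exceed 0.0651 FPKM in any tumour. Col10a1, the network collagen of hypertrophic cartilage, was at 0.0195 to 0.126 FPKM in inflamed against 0 to 0.104 FPKM in desert tumours, 14 reads in each type. Its span is overlapped on the other strand by Nt5dc1, and strand use in counting was not given. The other chains left out by the rule, which encode type IX collagen, were also lower in inflamed tumours. Col9a1 was at 0.0564 to 0.193 FPKM in inflamed against 7.07 to 26.2 FPKM in desert tumours. Col9a2 was at 0.684 to 2.76 FPKM in inflamed against 18.8 to 55.7 FPKM in desert tumours. Col9a3 was at 11.6 to 23.7 FPKM in inflamed against 239 to 398 FPKM in desert tumours.

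The remaining fibrillar genes were low or level. Col27a1, a minor fibrillar chain, averaged 2.02 ± 0.756 FPKM in inflamed against 2.22 ± 0.321 FPKM in desert tumours (difference -0.12, 95% interval -0.49 to 0.24, limma adjusted p = 0.533). Col24a1, another minor fibrillar chain, was at 0.44, 0.436, 0.51, 0.147 and 0.184 FPKM in inflamed tumours. In desert tumours it was listed at 0 in 2 and reached 0.0138 FPKM, with 223 reads over the inflamed and 4 over the desert tumours. It lay below the level for testing and was called higher once that filter was dropped (0.41, adjusted p = 0.00291).

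**Figure D2:**
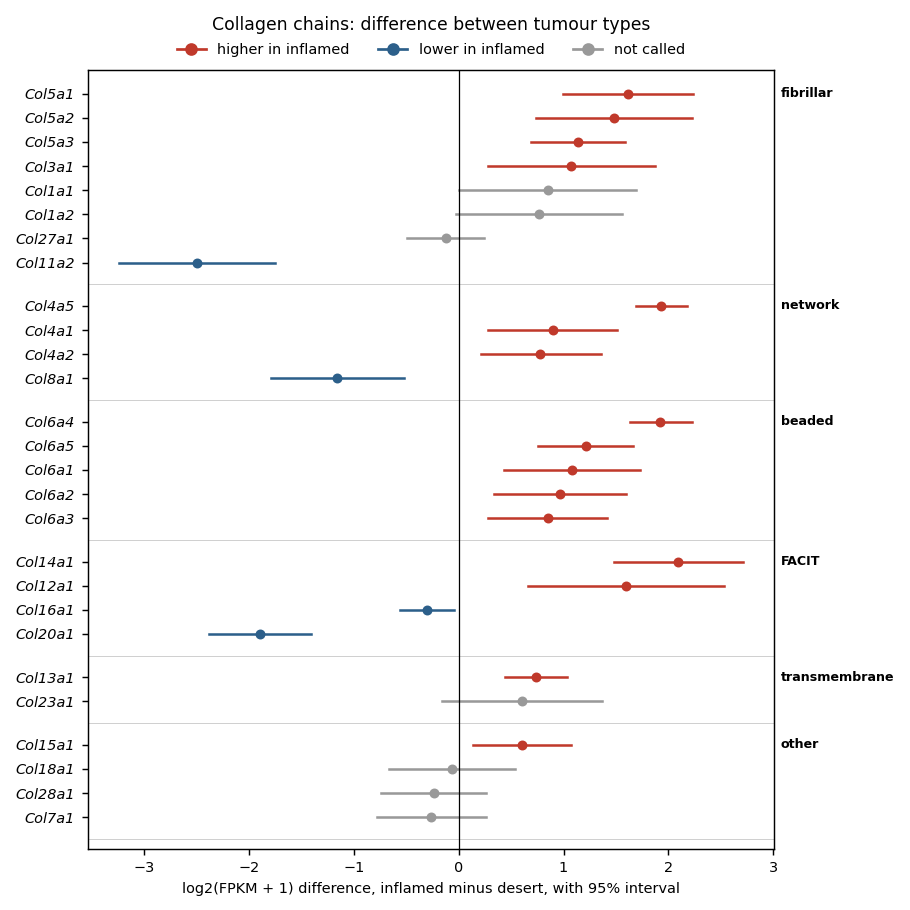
Difference in log2(FPKM + 1), inflamed minus desert, for the 27 tested collagen chains by class, with unadjusted 95% intervals from limma; colours give the call at adjusted p under 0.05. The fall of Col11a2 (-2.50) and the rise of Col14a1 (2.09) lie at the ends, and all 5 tested beaded filament chains lie to the right of 0. Of these 5, Col6a4 and Col6a5 passed the filter through the inflamed tumours alone.

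In the network class, the basement membrane chains were higher in inflamed tumours and Col8a1 was lower. Of 9 genes 4 were tested, 3 rose and 1 fell, with Col4a5 having passed the filter through the inflamed tumours alone. Col4a1 (ENSMUSG00000031502, chromosome 8), which with Col4a2 forms the common trimer of basement membranes, was at 64.1, 52.4, 43.7, 21.2 and 34.7 FPKM in inflamed tumours, against 26.4, 29.0, 14.4, 20.6 and 19.0 FPKM in desert tumours. Inflamed tumour 4 lay within the desert range and the other inflamed tumours lay above it. The difference was 0.90 (SE 0.28, limma adjusted p = 0.0158) and was not called with TPM (0.62, adjusted p = 0.108; alternatives 0.00148 to 0.108). Col4a2 was at 51.4, 38.7, 36.4, 17.9 and 24.9 FPKM in inflamed tumours, against 22.6, 23.6, 14.1, 15.8 and 16.0 FPKM in desert tumours. Its difference was 0.78 (SE 0.26, limma adjusted p = 0.0214), and the call was lost without desert tumour 3 (0.70, adjusted p = 0.052) and with TPM (0.51, adjusted p = 0.158) (alternatives ranged over 0.00278 to 0.158). Both genes start within 22 shared bases on opposite strands, so reads there could count for either.

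The second pair of type IV genes was near 0 in desert tumours. Col4a5 and Col4a6 encode chains of special basement membranes, such as those of kidney and smooth muscle, and lie head to head on chromosome X. Col4a5 (ENSMUSG00000031274) was at 2.92, 2.63, 4.04, 3.15 and 3.68 FPKM in inflamed tumours, against 0.0776, 0.184, 0.0925, 0.117 and 0.11 FPKM in desert tumours. The means differed 28.3-fold with no overlap (difference 1.93, SE 0.11, limma adjusted p = 1.38e-07). Col4a6 (ENSMUSG00000031273) was at 0.605, 0.194, 0.99, 0.882 and 0.529 FPKM in inflamed tumours. In desert tumours it was listed at 0 in 3 tumours and was at 0.039 and 0.00661 FPKM in desert tumours 3 and 5, with 425 reads over the inflamed and 6 over the desert tumours. Below the level for testing, it was called higher without the filter (0.68, adjusted p = 0.00171). Smooth muscle markers were also higher in inflamed tumours: 5 of 7 tested markers rose (71.4%, beside 31% of all tested genes) and 0 fell. Of the 7, 2 passed the filter through the inflamed tumours alone. The summed level of the markers was 77.4 to 824 FPKM in inflamed against 16.2 to 50.5 FPKM in desert tumours. Within the inflamed tumours the smooth muscle sum was highest in tumours 4 and 3, Col4a6 in tumours 3 and 4, and Col4a5 in tumours 3 and 5. Inflamed tumour 5, at 3.68 FPKM of Col4a5, held the lowest smooth muscle sum of the inflamed tumours (77.4 FPKM). The part of smooth muscle cells in the differences was not tested. The other head-to-head pair, Col4a3 and Col4a4, the chains of kidney and lung basement membranes, stayed at or below 0.253 FPKM in all tumours. Their means were 3.02-fold and 3.35-fold higher in inflamed tumours, with overlap. Neither was called without the filter (limma adjusted p = 0.0551 and 0.0526), while limma voom on the recovered reads called both higher (adjusted p = 0.0482 and 0.00645).

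The upstream sequences of Col4a5 and Col4a6 are shown because these neighbours moved together and their starts lie 1343 bases apart on chromosome X in RefSeq's GRCm38.p6 annotation. Col4a6, on the minus strand, has its upstream window at chrX:141474077-141474326. Col4a5, on the plus strand, is shown for chrX:141475169-141475384, leaving out 34 bases next to the start that GENCODE M21 counts as exon. Capitals mark, on either strand, the CCAAT box (CCAAT), the GC box (GGGCGG), the TATA box (TATAAA) and sequences bound by SOX factors (the letters ACAAAG, or else ACAATG). A match is a description of these letters, not a binding site.
Col4a6: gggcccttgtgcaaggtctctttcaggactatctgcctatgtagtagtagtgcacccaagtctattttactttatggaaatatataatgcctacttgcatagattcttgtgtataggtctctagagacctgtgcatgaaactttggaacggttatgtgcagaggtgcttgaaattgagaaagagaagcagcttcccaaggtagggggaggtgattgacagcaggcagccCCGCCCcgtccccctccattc
Col4a5: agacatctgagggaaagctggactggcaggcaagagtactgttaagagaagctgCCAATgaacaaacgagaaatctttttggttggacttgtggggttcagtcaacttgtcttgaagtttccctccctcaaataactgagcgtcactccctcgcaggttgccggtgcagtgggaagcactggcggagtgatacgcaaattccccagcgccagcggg
The Col4a6 window holds GGGCGG in its reverse form and the Col4a5 stretch holds CCAAT. The full Col4a5 window of 250 bases also holds 1 GGGCGG, counted on either strand, which lies within the bases left out. Over all 32851 RefSeq promoter windows of 250 bases, 33.8% hold CCAAT, 32.7% GGGCGG, 12.4% TATAAA, 16.5% ACAAAG and 10.7% ACAATG on either strand.

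Col8a1 (ENSMUSG00000068196, chromosome 16), a short chain of the subendothelial type VIII network, went the other way. It was at 0.515, 0.742, 0.935, 0.763 and 0.148 FPKM in inflamed tumours, against 2.23, 5.15, 1.78, 1 and 4.14 FPKM in desert tumours. All inflamed tumours lay below all desert tumours, and the mean was 4.61-fold higher in desert tumours (difference -1.16, SE 0.29, limma adjusted p = 0.0049). Col8a2, the other type VIII chain, was at 0 to 0.331 FPKM in inflamed against 0.0468 to 0.458 FPKM in desert tumours and was not called without the filter (adjusted p = 0.54). Of 8 endothelial markers 3 rose (37.5%, beside 31% of all tested genes) and 1 fell (12.5%, beside 31.2%). The summed level of these markers was 19.7 to 49.5 FPKM in inflamed against 19.7 to 28.9 FPKM in desert tumours.

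All type VI chains that could be tested were higher in inflamed tumours, 5 of 5, with 1 more below the level for testing. Of the 5, Col6a4 and Col6a5 passed the filter through the inflamed tumours alone, so they could only be tested because they were high there. Col6a1, Col6a2 and Col6a3 form the common trimer of the beaded filaments around cells. Col6a1 (ENSMUSG00000001119, chromosome 10) was at 32, 19.6, 26.9, 18.2 and 15.1 FPKM in inflamed tumours, against 6.35, 13.8, 13.0, 5.10 and 14.0 FPKM in desert tumours. The groups did not overlap, though inflamed tumour 5 and desert tumour 5 lay close together (difference 1.08, SE 0.29, limma adjusted p = 0.00815). Col6a2, the second chain, was at 16.3, 9.17, 11.5, 7.75 and 7.28 FPKM in inflamed tumours, against 2.84, 7.11, 5.96, 2.39 and 6.41 FPKM in desert tumours (0.97, SE 0.29, limma adjusted p = 0.0119). Col6a3, the longest chain of the trimer, was at 9.98, 6.64, 8.15, 3.69 and 4.05 FPKM in inflamed tumours, against 2.44, 4.66, 3.37, 1.92 and 2.87 FPKM in desert tumours (0.85, SE 0.26, limma adjusted p = 0.0136). With TPM, Col6a2 (0.80, adjusted p = 0.0643; alternatives 0.00839 to 0.0643) and Col6a3 (0.71, adjusted p = 0.0838; alternatives 0.00532 to 0.0838) were not called.

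Col6a4, Col6a5 and Col6a6, which encode chains that can take the place of Col6a3, lie in a row on chromosome 9 and were near 0 in desert tumours. Col6a4 (ENSMUSG00000032572) was at 2.96, 2.39, 2.56, 2.30 and 4.28 FPKM in inflamed tumours. In desert tumours 1 to 5 it was at 0.0382, 0.0069, 0, 0.0123 and 0 FPKM, 8 reads in all against 2065 in inflamed tumours (difference 1.92, SE 0.13, limma adjusted p = 5.62e-07). Col6a5 (ENSMUSG00000091345) was at 2.68, 1.38, 1.85, 0.642 and 0.772 FPKM in inflamed tumours, against 0.00692, 0.05, 0.0264, 0.0168 and 0.0056 FPKM in desert tumours. These groups lay far apart, with a 69.3-fold ratio of means that rests on 17 reads over the desert tumours (difference 1.21, SE 0.20, limma adjusted p = 0.000381). Col6a6 was at 0.155, 0.337, 0.0686, 0.0143 and 0.0533 FPKM in inflamed tumours, and among desert tumours only tumour 3 had reads, at 0.0339 FPKM. It was not called without the filter (0.15, adjusted p = 0.0996) and was called by limma voom (adjusted p = 0.00993). The mutual order of the 3 genes, with Col6a4 highest and Col6a6 lowest, was the same in inflamed tumours 1 to 5.

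The stretches upstream of Col6a5 (chr9:105960644-105960893) and Col6a6 (chr9:105828161-105828335, without 75 bases of exon), both on the minus strand of GRCm38.p6, are shown as those of neighbours that were near 0 together in desert tumours, with capitals as above.
Col6a5: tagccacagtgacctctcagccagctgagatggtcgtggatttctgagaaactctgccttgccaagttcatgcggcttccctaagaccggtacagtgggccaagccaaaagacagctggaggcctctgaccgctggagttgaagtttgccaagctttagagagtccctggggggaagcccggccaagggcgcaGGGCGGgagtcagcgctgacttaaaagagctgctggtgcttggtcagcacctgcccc
Col6a6: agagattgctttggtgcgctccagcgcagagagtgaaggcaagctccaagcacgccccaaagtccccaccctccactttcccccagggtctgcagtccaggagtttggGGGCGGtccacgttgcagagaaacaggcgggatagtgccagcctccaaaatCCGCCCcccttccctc
Chains that went the opposite way, Col11a2 (chr17:34038888-34039137, plus strand) and Col8a1 (chr16:57754738-57754987, minus strand), have these upstream windows.
Col11a2: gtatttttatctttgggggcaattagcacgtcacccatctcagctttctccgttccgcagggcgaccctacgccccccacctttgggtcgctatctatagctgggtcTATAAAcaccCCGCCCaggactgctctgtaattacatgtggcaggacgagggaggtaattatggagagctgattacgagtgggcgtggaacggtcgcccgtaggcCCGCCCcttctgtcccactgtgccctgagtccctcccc
Col8a1: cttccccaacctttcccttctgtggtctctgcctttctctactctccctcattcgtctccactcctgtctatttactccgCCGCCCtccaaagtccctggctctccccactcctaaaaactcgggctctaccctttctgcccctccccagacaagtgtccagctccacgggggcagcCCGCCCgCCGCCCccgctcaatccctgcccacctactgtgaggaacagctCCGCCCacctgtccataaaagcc
GGGCGG, in either orientation, is in all 4 of these stretches, and TATAAA is in that of Col11a2 alone. Among the 33 members with a RefSeq promoter entry, 20 windows hold GGGCGG, 12 CCAAT, 5 TATAAA, 4 ACAAAG and 1 ACAATG.

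FACIT chains split between the tumour types: of 4 tested genes 2 rose and 2 fell. Col14a1 (ENSMUSG00000022371, chromosome 15), which coats fibres in skin, tendon and gut wall, was at 29.8, 29.5, 9.77, 18.9 and 29.8 FPKM in inflamed tumours, against 3.41, 5.58, 4.34, 3.67 and 5.05 FPKM in desert tumours. There was no overlap, the means differed 5.34-fold, and the difference was 2.09 (SE 0.28, limma adjusted p = 6.92e-05). Col12a1 (ENSMUSG00000032332, chromosome 9), found in load-bearing tissue, was at 12.7, 11.9, 8.71, 2.49 and 5.50 FPKM in inflamed tumours, against 1.03, 2.95, 1.17, 0.649 and 4.38 FPKM in desert tumours. Inflamed tumour 4 lay within the desert range, and the difference was 1.60 (SE 0.42, limma adjusted p = 0.00688). Col20a1 (ENSMUSG00000016356, chromosome 2), a FACIT chain first described in chick embryos, was at 0.685, 0.496, 0.578, 0.92 and 0.511 FPKM in inflamed tumours, against 3.30, 2.94, 6.92, 6.65 and 6.99 FPKM in desert tumours. Every inflamed tumour lay below every desert tumour, with a mean 8.40-fold higher in desert tumours (difference -1.89, SE 0.22, limma adjusted p = 2.45e-05). The non-coding gene 9230112E08Rik overlaps Col20a1 on the same strand over 741 bases and was at 1.55 to 2.59 FPKM in inflamed against 2.86 to 4.69 FPKM in desert tumours, so some reads could belong to either. Col16a1, found at fibre surfaces and near basement membranes, was at 5.16, 3.6, 4.69, 3.99 and 3.12 FPKM in inflamed tumours, against 5.18, 5.19, 4.58, 5.81 and 5.44 FPKM in desert tumours. Its fall was small (difference -0.30, SE 0.12, limma adjusted p = 0.0423) and did not hold in 10 of 19 alternatives (alternatives ranged over 0.00534 to 0.0973), including the fits that omit inflamed tumour 2, 4 or 5 (adjusted p = 0.0946, 0.0681 and 0.0973) or desert tumour 1, 2, 4 or 5 (adjusted p = 0.0632, 0.0694, 0.0878 and 0.0783). Col22a1, a chain of tissue junctions, and Col19a1, a rare FACIT chain, stayed at or below 0.451 and 0.0361 FPKM in all tumours.

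Transmembrane chains were low, with 2 of 4 tested and 1 called (Col13a1, which passed the filter through the inflamed tumours alone). Col13a1 (ENSMUSG00000058806, chromosome 10), a chain of cell-matrix and neuromuscular junctions, was at 1.43, 1.04, 1.10, 0.589 and 0.704 FPKM in inflamed tumours, against 0.0557, 0.289, 0.199, 0.123 and 0.203 FPKM in desert tumours. The groups did not overlap (5.59-fold between means, difference 0.74, SE 0.13, limma adjusted p = 0.000661). Col23a1 was at 3.30, 5.11, 2.42, 1.28 and 0.692 FPKM in inflamed tumours, against 0.579, 0.626, 1.98, 2.14 and 0.781 FPKM in desert tumours. The groups overlapped and it was not called (0.60, 95% interval -0.16 to 1.37, limma adjusted p = 0.153), although it was called without inflamed tumour 5 (0.84, adjusted p = 0.0429; alternatives 0.0429 to 0.337). Col17a1, the hemidesmosome collagen of basal epithelial cells, was at 0.0283, 0, 0.0381, 0.787 and 0.0102 FPKM in inflamed tumours, against 0 to 0.049 FPKM in desert tumours. Only inflamed tumour 4 stood out, and the same tumour held 267 FPKM of the summed basal and squamous markers, beside 39.9 to 49.0 FPKM in the other inflamed and 26.0 to 35.6 FPKM in the desert tumours. Of that list, 3 of 5 tested members rose (60%, beside 31% of all tested genes) and 0 fell. However, 4 of the 5 (Krt13, Krt14, Krt5 and Dst) passed the filter through the inflamed tumours alone. Krt14, a basal keratin, reached 25 FPKM in inflamed tumour 4, lay between 1.11 and 4.65 FPKM in the other inflamed tumours, and was listed at 0 in 4 desert tumours. Col25a1 did not exceed 0.0504 FPKM.

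Outside these classes, the multiplexins and the anchoring fibril chain were mostly level. Col18a1 (ENSMUSG00000001435, chromosome 10), the basement membrane collagen that releases endostatin, was at 36.7, 34.1, 31.3, 15.7 and 26.5 FPKM in inflamed tumours, against 47.7, 32.8, 25.8, 28.6 and 17.5 FPKM in desert tumours. Slc19a1 overlaps its span on the other strand. The groups overlapped (difference -0.06, 95% interval -0.66 to 0.54, limma adjusted p = 0.86), and the sign turned without inflamed tumour 4 (0.14) or without desert tumour 1 (0.11). Col15a1, the other multiplexin, was at 7.05, 7.94, 6.31, 4.75 and 4.87 FPKM in inflamed tumours, against 4.82, 4.72, 4.95, 2.42 and 2.23 FPKM in desert tumours (0.60, SE 0.21, limma adjusted p = 0.028). That call was lost in 7 of 20 alternatives, including the fits that omit inflamed tumour 1, 2 or 3 (adjusted p = 0.0608, 0.0676 and 0.0525) or desert tumour 4 or 5 (adjusted p = 0.0662 and 0.0645), and with TPM (0.42, adjusted p = 0.192) (alternatives ranged over 0.00321 to 0.192). Col7a1, which anchors the epidermal basement membrane, was at 2.04, 1.08, 1.26, 0.466 and 0.356 FPKM in inflamed tumours, against 2.22, 1.29, 0.984, 0.818 and 1.62 FPKM in desert tumours (-0.26, 95% interval -0.78 to 0.26, limma adjusted p = 0.361). Col28a1, a chain with a von Willebrand factor type A domain, averaged 0.797 ± 0.384 FPKM in inflamed against 1.17 ± 0.655 FPKM in desert tumours (-0.24, 95% interval -0.74 to 0.26, limma adjusted p = 0.376). Col26a1 had 2 reads over the inflamed and 29 over the desert tumours, all inflamed values lying below all desert values, and was called lower without the filter (-0.05, adjusted p = 0.0387).

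The 13 members below the level for testing did not exceed 0.99 FPKM in any tumour. Without the filter 2 of them were called higher (Col24a1 and Col4a6), 1 lower (Col26a1) and 10 were not called. Limma voom on the recovered reads could test 8 of the 13 and called 6.

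Summed over all members, collagen FPKM was 540, 394, 370, 217 and 296 in inflamed tumours and 283, 291, 214, 174 and 248 in desert tumours. These sums overlapped, and as a share of all FPKM they ran over 0.0608% to 0.19% in inflamed tumours and over 0.0733% to 0.122% in desert tumours. Beaded chains made up 10% to 15% of the collagen FPKM in inflamed against 4.12% to 10.5% in desert tumours, with 1 desert tumour inside the inflamed range. The fibrillar share ran from 41.2% to 47.5% across inflamed tumours, against 43% to 56% across desert tumours. Without Col11a2, the fibrillar sum was 252, 156, 157, 80.3 and 123 FPKM in inflamed tumours and 54.0, 101, 78.6, 33.4 and 116 FPKM in desert tumours. Sums over chosen members are given as descriptions and were not tested.

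**Figure D3:**
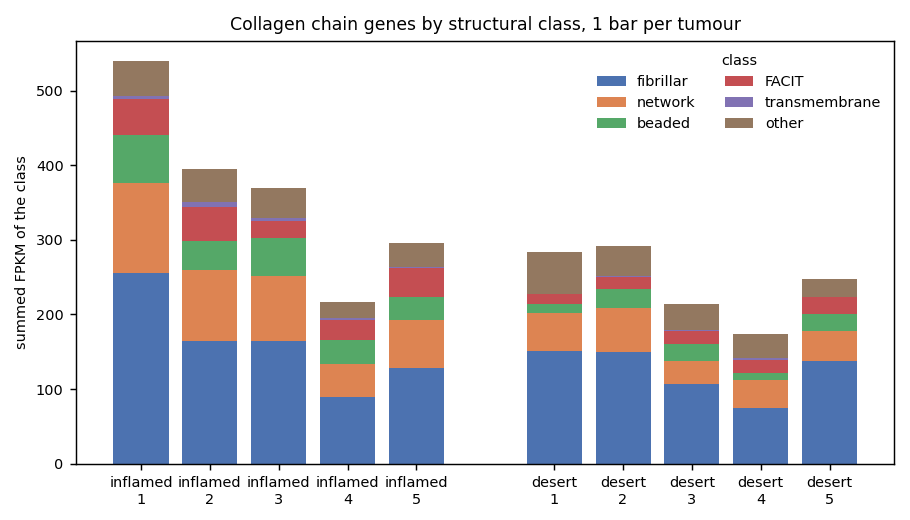
Summed FPKM of the collagen chain genes in each tumour, stacked by structural class, with inflamed tumours 1 to 5 on the left and desert tumours 1 to 5 on the right. Inflamed tumour 1 holds the highest sum (540 FPKM) and desert tumour 4 the lowest (174 FPKM), and the fibrillar class is the tallest segment in all 10 bars.

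Within a tumour type, many chains ranked the tumours alike. Over the 23 tested members with a mean of at least 0.5 FPKM in both types, inflamed tumour 1 was the highest inflamed tumour for 15 members and inflamed tumour 4 the lowest for 13. Among desert tumours, tumour 4 was the lowest for 13 members, while tumour 2 was the highest for 8 and tumour 5 for 7. Inflamed tumour 4 was instead the highest inflamed tumour for Col11a2, Col20a1 and Col27a1. Inflamed tumour 5 was the lowest for 7 members, and inflamed tumours 1, 2 and 3 for 1 each. Desert tumour 1, in turn, was highest for Col18a1, Col11a2 and Col7a1.

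The summed level of fibroblast markers did not overlap between the tumour types, with inflamed tumours above, but single markers differed in direction, and their part in the differences was not tested. Of 10 fibroblast markers 8 were tested, 4 rose (50%, beside 31% of all tested genes), 1 fell (12.5%, beside 31.2%) and 3 were not called. The summed level of the 10 markers was 113, 96.0, 104, 57.2 and 72.9 FPKM in inflamed tumours and 23.3, 41.7, 48.7, 37.2 and 37.4 FPKM in desert tumours. Inflamed tumours 1 and 4 held the highest and lowest inflamed sums here as well. Among desert tumours the orders differed. The marker sum was highest in tumour 3 and lowest in tumour 1, while the collagen sum was highest in tumour 2 (291 FPKM) and lowest in tumour 4 (174 FPKM). Dpt, a matrix protein of fibroblasts, averaged 15.4 ± 3.80 FPKM in inflamed against 0.934 ± 0.804 FPKM in desert tumours (difference 3.16, limma adjusted p = 4.24e-06). Dcn, the proteoglycan that binds collagen fibres, averaged 36.6 ± 13.3 FPKM in inflamed against 6.79 ± 3.95 FPKM in desert tumours (2.31, limma adjusted p = 0.000198). Mfap5, a microfibril gene of some fibroblasts, fell (0.465 ± 0.173 FPKM in inflamed against 2.31 ± 1.31 FPKM in desert tumours, -1.09, limma adjusted p = 0.00377). Mfap5, the only marker of this list called lower, passed the filter through the desert tumours alone. Pdgfra, a fibroblast receptor (-0.44, limma adjusted p = 0.204), and Lum, a fibre-binding proteoglycan (-0.27, limma adjusted p = 0.567), were not called. None of the 10 markers was at 0 throughout a tumour type, and Fap, a marker of activated fibroblasts, averaged 0.268 ± 0.0306 FPKM in inflamed against 0.298 ± 0.125 FPKM in desert tumours. The epithelial marker sum was 3317 to 6318 FPKM in inflamed against 1523 to 2227 FPKM in desert tumours and was highest in inflamed tumour 4. Of these 6 markers 4 rose (66.7%, beside 31% of all tested genes) and 0 fell. Krt19, a simple epithelial keratin, averaged 1253 ± 611 FPKM in inflamed against 179 ± 22.7 FPKM in desert tumours (2.68, limma adjusted p = 9.1e-06), Krt8, its partner keratin, rose by 1.51 (limma adjusted p = 0.000167) and Cldn7, a tight junction gene, by 2.11 (limma adjusted p = 2.99e-05). Smooth muscle genes differed widely among inflamed tumours. Actg2, a visceral smooth muscle actin, was at 13.5 to 234 FPKM in inflamed against 0.16 to 1.59 FPKM in desert tumours (5.02, limma adjusted p = 4.66e-05), Myh11, smooth muscle myosin, rose by 3.88 (limma adjusted p = 0.000597) and Acta2, smooth muscle actin, by 3.7 (limma adjusted p = 3.16e-05). The endothelial receptor gene Tek rose by 1.26 (limma adjusted p = 4.91e-05) and Pecam1, an endothelial adhesion gene, by 1.17 (limma adjusted p = 0.00105). Other genes of the endothelial list differed: Cldn5 fell (-0.85, limma adjusted p = 0.0356), a call that held in 11 of 19 alternatives. Cdh5, Vwf, Egfl7 and Emcn were not called (differences 0.36, 0.38, 0.13 and 0.04). Of the basal list, Dst, a hemidesmosome linker, rose by 1.44 (limma adjusted p = 1.48e-05), Krt14 by 2.11 (limma adjusted p = 0.0102) and Itgb4, a hemidesmosome integrin, by 0.47 (limma adjusted p = 0.0178), the last not with TPM (0.19, adjusted p = 0.159; alternatives 0.0135 to 0.159). The osteoblast markers Alpl (1.70, limma adjusted p = 0.000324) and Runx2 (1.46, limma adjusted p = 1.28e-06) rose, both having passed the filter through the inflamed tumours alone. The other 4 osteoblast markers were not tested. Ibsp ranged over 0.0574 to 0.89 FPKM among inflamed tumours and was listed at 0 in all 5 desert tumours. Dmp1 was at 0.288 to 1.35 FPKM in inflamed against 0.0191 to 0.19 FPKM in desert tumours, Sp7 at 0.0168 to 0.213 FPKM in inflamed against 0.384 to 0.52 FPKM in desert tumours, and Bglap at 0.106 to 0.297 FPKM in inflamed against 0 to 0.51 FPKM in desert tumours.

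Chain ratios ask whether partners kept their proportions, since a ratio within a library does not depend on library scaling. Of 12 pairs of chains that share a trimer, a fibre or a family, 8 had enough expression to be tested by an exact two-sided permutation test over the 10 tumours, whose smallest possible p is 0.00794. None of the 8 was called after Benjamini-Hochberg adjustment, while 2 had an unadjusted p under 0.05. Among 8 pairs, a single ratio at the smallest possible p has an adjusted p of 0.0635, so no ratio could be called on its own. The lack of calls therefore does not show that proportions were kept. Col1a1 stood at 2.55 ± 0.201 times Col1a2 in inflamed and 2.48 ± 0.232 times in desert tumours (SD, n = 5 each; exact permutation p = 0.548, adjusted p = 0.587). Col4a1 stood at 1.28 ± 0.0944 times Col4a2 in inflamed and 1.18 ± 0.103 times in desert tumours (exact permutation p = 0.167, adjusted p = 0.267). Col6a1 stood at 2.17 ± 0.17 times Col6a2 in inflamed and 2.14 ± 0.118 times in desert tumours (exact permutation p = 0.587, adjusted p = 0.587). These partner chains thus kept within 1 SD of each other's ratio for Col1a1 over Col1a2 and Col6a1 over Col6a2, while the levels of the chains differed up to 2.14-fold between tumour types. The size of a ratio also depends on the deposited gene lengths (6563 bases for Col1a1, 12426 for Col1a2). Only its contrast between tumour types is read here.

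Within type V collagen, Col5a1 over Col5a2 averaged 0.815 ± 0.118 in inflamed and 0.685 ± 0.119 in desert tumours (log2 difference 0.24, exact permutation p = 0.119, adjusted p = 0.238). Col5a3 over Col5a1 averaged 0.378 ± 0.019 in inflamed and 0.462 ± 0.112 in desert tumours (-0.30, exact permutation p = 0.0635, adjusted p = 0.169). Col6a3 over Col6a1 averaged 0.285 ± 0.0524 in inflamed and 0.312 ± 0.0782 in desert tumours (-0.13, exact permutation p = 0.587, adjusted p = 0.587). Both ratios with an unadjusted p under 0.05 were between different collagens. The ratio of Col3a1 to Col1a1 was 0.749, 0.708, 0.854, 0.823 and 0.72 in inflamed tumours and 0.587, 0.635, 0.679, 0.704 and 0.645 in desert tumours. Every inflamed tumour was above every desert tumour, by a narrow gap, with a log2 difference of 0.24 (exact permutation p = 0.00794, the smallest the test allows, adjusted p = 0.0635). The ratio of Col15a1 to Col18a1 averaged 0.223 ± 0.0487 in inflamed and 0.130 ± 0.0418 in desert tumours (log2 difference 0.79, exact permutation p = 0.0238, adjusted p = 0.0952). Without desert tumour 3, both of these and the ratio of Col5a1 to Col5a2 were called (adjusted p = 0.0423 each), so the count went to 3 of 8.

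**Figure D4:**
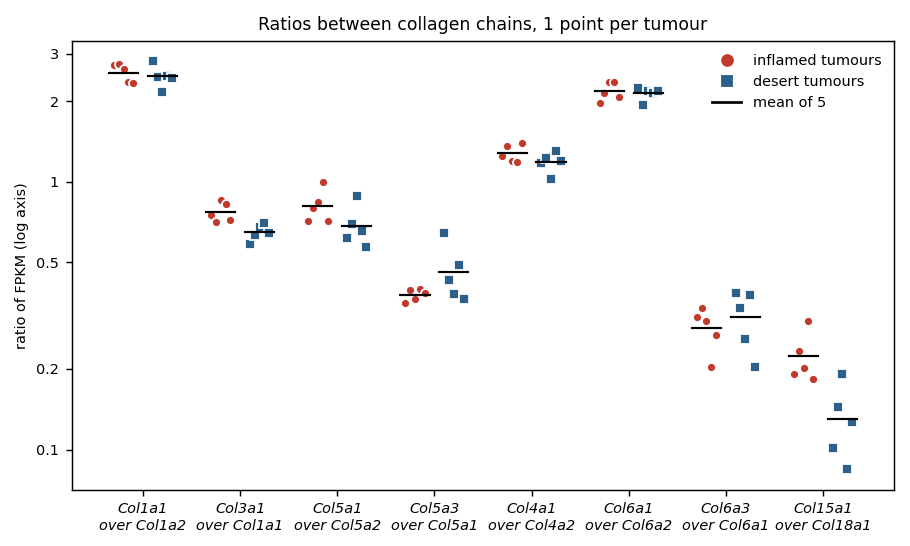
Ratio of FPKM between paired collagen chains on a log axis, with 1 circle per inflamed tumour, 1 square per desert tumour and a bar at the mean of 5, for the 8 pairs that were tested. Col1a1 over Col1a2 and Col6a1 over Col6a2 overlap between the types, and Col3a1 over Col1a1 is higher in every inflamed tumour.

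Genes that modify, export or bind collagen moved in both directions. Over the 5 lists of such genes, 43 of 52 were tested, 20 rose, 14 fell and 9 were not called, with a median difference of 0.29. That is 46.5% higher, 32.6% lower and 79.1% called, beside 31%, 31.2% and 62.2% of all tested genes, so the share lower is near that of all genes. Of the 43, 6 passed the filter through 1 tumour type alone. Enzymes that hydroxylate and glycosylate the chains in the endoplasmic reticulum moved both ways: of 13 tested, 4 rose (30.8%) and 6 fell (46.2%). Their share higher is near that of all genes. With TPM, 1 was higher (Plod3) and 7 were lower, Colgalt1 included. Among the rises, Ppib, a prolyl isomerase (0.32, limma adjusted p = 0.0377), lost its call in 10 of 20 alternatives (range 0.0113 to 0.866), including those without inflamed tumour 1, 2, 3 or 5 (adjusted p = 0.0741, 0.0859, 0.0555 and 0.0684) or desert tumour 2 or 4 (adjusted p = 0.0926 and 0.0861). P3h3, a prolyl 3-hydroxylase (0.36, limma adjusted p = 0.049), lost it in 11 of 19 (range 0.0285 to 0.398), including those without inflamed tumour 1, 2 or 3 (adjusted p = 0.116, 0.063 and 0.107) or desert tumour 2, 3, 4 or 5 (adjusted p = 0.0575, 0.0826, 0.109 and 0.0655). Plod2, which hydroxylates lysines at the chain ends, was at 4.28, 4.49, 4.2, 1.52 and 2.31 FPKM in inflamed tumours, against 24.3, 20.1, 15.6, 17.5 and 15.3 FPKM in desert tumours. The groups were far apart (difference -2.21, SE 0.23, limma adjusted p = 1.02e-05). Colgalt2, which adds galactose to hydroxylysine, was at 0.245 to 0.405 FPKM in inflamed against 4.94 to 8.98 FPKM in desert tumours (-2.59, SE 0.13, limma adjusted p = 5.13e-08). Colgalt2 passed the filter through the desert tumours alone. P4hb, the disulfide isomerase subunit of prolyl 4-hydroxylase, was the most abundant of the list and rose slightly (0.42, SE 0.16, limma adjusted p = 0.0342). It lost that call in 11 of 20 alternatives, among them TPM (adjusted p = 0.376), each run without inflamed tumour 2, 4 or 5 (adjusted p = 0.0673, 0.0768 and 0.0702) and each without desert tumour 2, 3, 4 or 5 (adjusted p = 0.076, 0.0805, 0.066 and 0.0623) (alternatives ranged over 0.00306 to 0.573).

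Of 9 chaperones and export factors 4 were higher and 4 lower (44.4% each, beside 31% higher and 31.2% lower among all tested genes). With TPM 3 were higher and 4 lower. Sec24d, a coat protein of export vesicles (0.43, limma adjusted p = 0.036), lost its call in 10 of 20 alternatives (range 0.0115 to 0.449), including TPM (adjusted p = 0.449) and those without inflamed tumour 2, 3 or 5 (adjusted p = 0.0845, 0.0582 and 0.0682) or desert tumour 2, 3 or 5 (adjusted p = 0.0622, 0.0847 and 0.0785). Creb3l1, a transcription factor that activates collagen secretion genes, was at 45.4, 49.0, 53.0, 49.2 and 50.4 FPKM in inflamed tumours, against 26.7, 8.03, 4.73, 1.80 and 3.56 FPKM in desert tumours (2.82, SE 0.49, limma adjusted p = 0.000446). Desert tumour 1 stood above the other desert tumours. Fkbp10, a chaperone of procollagen, averaged 3.48 ± 0.954 FPKM in inflamed against 14.4 ± 1.90 FPKM in desert tumours (-1.80, limma adjusted p = 2.09e-06). Sparc, an abundant collagen-binding glycoprotein, averaged 69.9 ± 21.6 FPKM in inflamed against 179 ± 82.4 FPKM in desert tumours (-1.29, limma adjusted p = 0.00467). Serpinh1, the collagen chaperone HSP47, named after its values were seen, averaged 22.6 ± 2.12 FPKM in inflamed against 53.1 ± 13.1 FPKM in desert tumours (-1.16, limma adjusted p = 8.13e-05).

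Propeptide processing, cross-linking and receptor genes differed in direction. Of 5 tested processing genes 1 rose (20%, beside 31% of all tested genes) and 2 fell (40%, beside 31.2%). With TPM 0 were higher and 2 lower. Bmp1, the C-propeptide protease, averaged 6.99 ± 2.20 FPKM in inflamed against 16.7 ± 1.08 FPKM in desert tumours (-1.19, limma adjusted p = 0.000148), and Pcolce, its enhancer, averaged 5.2 ± 0.538 FPKM in inflamed against 3.14 ± 0.951 FPKM in desert tumours (0.61, limma adjusted p = 0.00622), a call lost with TPM (adjusted p = 0.0857; alternatives 0.00512 to 0.0857). Furin, a proprotein convertase, fell slightly (-0.50, limma adjusted p = 0.037), a call lost in 8 of 20 alternatives, 7 of them with 1 library left out (inflamed tumour 2, 4 or 5 or desert tumour 1, 2, 3 or 5) (alternatives ranged over 0.00888 to 0.0852). Of 7 cross-linking genes 4 rose (57.1%) and 2 fell (28.6%, near the share of all tested genes). Loxl4 among the rises passed the filter through the inflamed tumours alone. Tgm2, a transglutaminase, averaged 43.9 ± 11.4 FPKM in inflamed against 13.1 ± 3.09 FPKM in desert tumours (1.66, limma adjusted p = 6.28e-05), and Loxl2, a lysyl oxidase, averaged 11.6 ± 4.92 FPKM in inflamed against 3.79 ± 1.98 FPKM in desert tumours (1.41, limma adjusted p = 0.00521). Of 9 tested collagen receptors 7 rose (77.8%, beside 31% of all tested genes) and 0 fell, while with TPM 4 were higher and 1 lower. Of the 7, Ddr2, Adgrg6 and Lair1 passed the filter through the inflamed tumours alone, so that they could only be tested because they were high there. Itga1, an integrin subunit that binds type IV collagen, averaged 3.57 ± 0.505 FPKM in inflamed against 0.549 ± 0.196 FPKM in desert tumours (1.56, limma adjusted p = 1.19e-06). Ddr2, a receptor tyrosine kinase for fibrillar collagen, averaged 3.21 ± 0.707 FPKM in inflamed against 0.423 ± 0.144 FPKM in desert tumours (1.55, limma adjusted p = 2.57e-06). Itgb1, the common beta subunit and the most abundant receptor gene, rose by 0.59 (limma adjusted p = 0.00292) and was not called with TPM (0.29, adjusted p = 0.114; alternatives 0.00156 to 0.114).

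**Figure D5:**
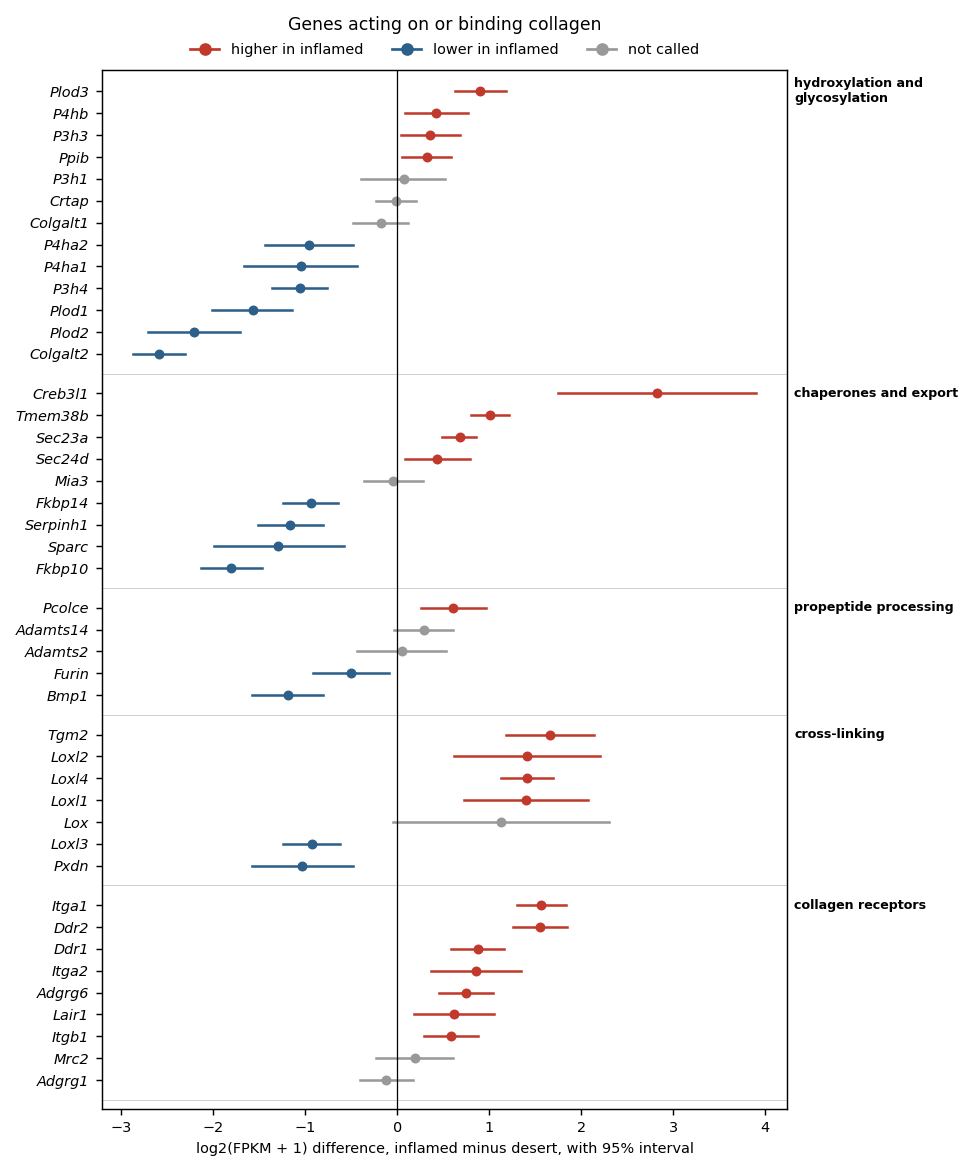
Difference in log2(FPKM + 1), inflamed minus desert, for the 43 tested genes that act on or bind collagen, by list, with unadjusted 95% intervals from limma and colours for the call at adjusted p under 0.05. Colgalt2 (-2.59) and Plod2 (-2.21) lie furthest to the left, Creb3l1 (2.82) furthest to the right, and no receptor gene was called lower on this scale (1 was with TPM).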

How the data were processed

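The authors deposited FPKM values per gene (reads per gene length and library size) as a table, with 1 column for each of the 10 tumours. The submitters' processing notes name mm10; the aligner, counter, annotation, strand use and batches are not given in the sources used here. All 40 members were on the same chromosome in GENCODE M21 (GRCm38) but only 3 had the same start as in the table, so gene positions beyond the chromosome are not printed. Upstream sequences are RefSeq's (GRCm38.p6; 33 members matched). Sources do not say whether tumours came from separate mice, so p-values measure the spread between these tumours. The protocol text speaks of 6 tumours; the series holds 10, and all were used.

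Per the labels, groups are tumour types. Genes with a mean of at least 0.5 FPKM were tested as log2(FPKM + 1) with limma (version 3.58.1; R 4.3.3; tables read by the data.table package 1.17.8; trend and robust moderation, two-sided, group only), adjusted over all tested genes. Chain ratios used log2 with 0.1 added, and exact permutation tests (scipy 1.17.1). Reads were recovered from FPKM and the table's gene length (99.99% of values above 0 within 0.01 of whole numbers); voom used genes with a mean of at least 10 reads. Both tests were checked on simulated data. Alternatives were pseudocounts, filters, TPM, median-of-ratios and quantile scaling, plain limma, voom, a block for tumour number, and leaving out tumours singly. Deviations of same-numbered tumours correlated at -0.0737 to 0.0763, which does not exclude a pairing or a shared batch. Members, 12 lists, chain pairs and tests were chosen with earlier results of these data known. In each class, the 3 members of highest mean and the 2 called members of largest difference were to be given in full, and in each list the called genes with the 2 largest differences and the 1 with the top mean were to be named; other genes were named after their values were seen.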

Additional observations from a re-analysis of the deposited data

How the results depend on the processing

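Calls of 17 of the 27 tested collagen chains held under every alternative they entered, 10 changed under at least 1 of the 20, and no called direction reversed; that of Col18a1, not called, was -0.06 and turned to 0.14 without inflamed tumour 4 and 0.11 without desert tumour 1 (-0.23 to 0.14 over the left-out tumours). With a mean of at least 5 FPKM, fewer genes enter, and 5854 genes in all, 10 collagen genes higher and 1 lower were called, beside 10418, 16 and 4. TPM also left 10 collagen genes higher, and no common cause was tested. Leaving out each tumour in turn gave 9828 to 10311 genes called, 14 to 18 collagen genes higher and 3 to 4 lower. It also gave 29 to 33 modifying and receptor genes called, beside 34 with all tumours, and 0 to 3 chain ratios called. The genes called were not always the same: Lox was called without inflamed tumour 4 (limma adjusted p = 0.00961) but not with all tumours. Chain ratio calls were 0 as reported and 2 without the filter on low values (Col3a1 over Col1a1 and Col4a5 over Col4a6). Col4a6 was listed at 0 in 3 desert tumours, so the desert ratio of that pair rests largely on the 0.1 added. Where it was above 0, the ratio was 2.37 and 16.6 in desert tumours 3 and 5, against a mean of 6.61 in inflamed tumours. With the tumour number as a replicate block, 9925 genes were called; Col1a1 was then called higher (adjusted p = 0.0347) and Col16a1 was not called (adjusted p = 0.0833). Same-numbered tumours correlated at -0.0737 to 0.0763 in their deviations, and 1 of 5 inflamed tumours correlated best with its own number. A pairing or shared batch need not show in such correlations between 2 tumour models, so whether the numbers pair the tumours stays unknown. The sign-flip test of paired ratios cannot go below 0.0625. Depth limits the 13 lowest members, some with under 30 reads over a tumour type.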
